A study of Mus musculus with 4 samples.

Results

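Interferon-stimulated genes are genes whose transcription rises when a cell receives interferon, and their summed activity is commonly read as a trace of interferon exposure. The set described here was given as a list of 39 mouse genes, chosen by name and not by any measured value, and 37 of them were listed in all 4 count matrices, out of 30406 genes that the matrices share. Mx1 was listed in the matrix of 1 library alone and Mx2 in none of those used, so neither entered a comparison. By their usual inducer the members were divided into 24 type I members (interferon alpha and beta), 9 type II members (interferon gamma) and 6 members that respond strongly to both, a division of degree, since most type I members also answer to interferon gamma to some extent.

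The cells came from mouse popliteal lymphatic vessels and the superficial saphenous vein beside them, dissected from both hindlimbs, digested and sorted before droplet single-cell RNA sequencing with 10x chemistry. The WT library came from male 9-month C57BL6 mice, and the TNF-Tg library from male 9-month mice of the same background that carry a TNF transgene and develop an inflammatory-erosive arthritis. Both were sorted as live cells of high forward scatter, high side scatter or both. Both tdT libraries came from male and female Cspg4-Cre; Ai9-tdTomato mice, in which Cre driven by Cspg4 marks cells with tdTomato, and were sorted for live tdTomato-positive cells. Each library pooled 3 mice, so the mice within a library cannot be separated, and with 1 WT and 1 TNF-Tg library no test between those groups was possible.

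Interferon alpha and beta signal through the receptor IFNAR, and a complex that holds STAT2 and IRF9 then binds the interferon-stimulated response element (ISRE). Interferon gamma signals through IFNGR and acts on genes that carry the gamma-activated sequence (GAS). Macrophages and other myeloid cells are known for a standing, low level of these genes even without infection, and TNF itself can raise some of them, slowly, through interferon beta or through IRF1.

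To show what the members share in sequence, the 250 bases upstream of each RefSeq transcription start (GRCm38.p6, the build also called mm10) were searched on both strands for the ISRE core, which is GAAA, any 2 bases and GAAA again, and for the GAS core TTCNNNGAA. Of the 31 members with a window, 16 held an ISRE core (51.6%), against 3.46% of all 27025 genes with a window. A GAS core stood in 7 of the 31 (22.6%), against 8.13% of all genes. The ISRE core was present in 9 of 19 type I members, 5 of 8 type II members and 2 of 4 members of both kinds, so the division by inducer did not separate members with and without the core. A match describes the letters of a window and is not a bound site. The stretches below carry the motif in capitals with up to 20 bases on either side, and were chosen as the clearest antiviral, guanylate-binding, GTPase, transcription factor and chemokine examples.
Ifit1, ISRE core read from the other strand, 104 bases before the start, chr19:34640765-34640814, plus strand: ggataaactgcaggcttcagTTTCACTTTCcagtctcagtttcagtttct
Ifit3, ISRE core read from the other strand, 156 bases before the start, chr19:34583353-34583402, plus strand: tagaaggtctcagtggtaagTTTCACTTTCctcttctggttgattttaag
Isg15, ISRE core, 72 bases before the start, chr4:156200861-156200910, minus strand: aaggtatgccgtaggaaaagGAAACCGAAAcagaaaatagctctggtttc
Bst2, ISRE core, 124 bases before the start, chr8:71537567-71537616, minus strand: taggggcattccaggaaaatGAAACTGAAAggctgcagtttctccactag
Gbp2, ISRE core read from the other strand, 59 bases before the start, chr3:142620584-142620633, plus strand: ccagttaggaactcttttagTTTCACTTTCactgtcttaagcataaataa
Igtp, ISRE core, 34 bases before the start, chr11:58199502-58199551, plus strand: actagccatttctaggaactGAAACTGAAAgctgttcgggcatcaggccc
Irf1, GAS core, 90 bases before the start, chr11:53769904-53769952, plus strand: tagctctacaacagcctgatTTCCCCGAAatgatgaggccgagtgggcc
Cxcl10, ISRE core, 213 bases before the start, chr5:92349073-92349122, minus strand: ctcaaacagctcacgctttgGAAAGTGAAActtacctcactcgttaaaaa
In Bst2 a further ISRE match, 130 bases before the start, overlapped both the one shown and a GAS match 136 bases before the start. Further matches stood within other stretches shown, outside the capitals or overlapping them. The Ifit1 stretch held another ISRE core, 85 bases before the start, and the Isg15 stretch ISRE cores 78 and 66 bases before it. The Igtp stretch held a GAS core as well, 45 bases before the start. The Ifit3 stretch stood in the Ifit3b window as well, letter for letter.

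Many members sit beside each other in the genome. Ifit1, Ifit2, Ifit3 and Ifit3b lie within chr19:34550694-34650009, Gbp2, Gbp3 and Gbp7 within chr3:142530342-142638008, and Rsad2 and Cmpk2 are neighbors on chromosome 12. Cxcl9 and Cxcl10 are neighbors on chromosome 5, as are Oasl1 and Oasl2, and Oas1a, Oas2 and Oas3 form another group there (GRCm38). Near-identical copies can exchange reads in a 3′ assay. Over the last 500 bases, 56.1% of the 50-base words of Oas1a also occurred in Oas1g, 19.9% of those of Trim30a in Trim30d and 14.9% of those of Ifit3 in Ifit3b, so the values of these 3 members are uncertain. Irf7, Irf1, Oas2, Oasl1, Usp18, Ifi35, Ifi47, Gbp2, Cxcl10, Rtp4 and Trim30a overlap an annotated gene on the other strand. Irf9, Ifi47, Igtp, Gbp7, Parp14 and Rtp4 overlap one on their own strand.

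The matrices held 1504 and 454 cells in the tdT1 and tdT2 libraries, 5488 in WT and 3391 in TNF-Tg, with median UMI counts per cell between 4932.5 and 12660 and no more than 5 cell barcodes shared by any pair of libraries. Cells were put into classes by fixed marker genes that exclude every member. The Ccr2 macrophage-like markers were C1qa, C1qb, C1qc, Ms4a7, Ccl12, Ccl7, Aif1 and Apoe, without Ccr2 itself. The names LMC-like and VSMC-like follow the study's terms for its lymphatic and venous mural cells. Both of those classes carried 6 stromal marker genes, part of their gate, at a summed 21440 to 49800 CPM (UMI counts scaled to 1000000), while 5 contractile genes (Acta2, Myh11, Tagln, Cnn1 and Des, a list chosen after the data were seen) summed to only 3.27 to 42.4 CPM, so the defining muscle markers were near absent. The tdT1 library stood apart, with 516 of its 1504 cells above 10% mitochondrial counts. There, 9 early-response genes such as Fos and Jun, a list also chosen after the data were seen, summed to 18470 CPM in LMC-like cells, against 3133 to 3785 CPM in the other 3 libraries. Their part in the member values of tdT1 was not tested. Throughout, a level is the UMI count of a gene summed over the cells of a class and scaled to the UMIs of that class (CPM), and it is compared between classes or libraries only within a gene or a fixed list.

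In WT, the highest summed levels of the type I members among the 8 classes compared were in the macrophage, neutrophil and monocyte classes. The 22 type I members measured summed to 2407 CPM in Ccr2 macrophage-like cells, 1506 CPM in neutrophil-like cells, 1409 CPM in Lyve1 macrophage-like cells and 1085 CPM in the inflammatory monocyte-like class. The corresponding sums were 643 CPM in Cd209a dendritic cell-like cells, 464 CPM in LMC-like, 393 CPM in VSMC-like and 385 CPM in T cell-like cells. In TNF-Tg the order differed, with 844 CPM in Cd209a dendritic cell-like cells against 673 CPM in the inflammatory monocyte-like class. Bst2 alone gave 469 CPM of the former and 155 CPM of the latter. That gap is wider than the one between the sums, so the change of order rested on this gene. Each sum is from a single library without a replicate check. In WT, 16 of the 37 members had their highest level in the Ccr2 macrophage-like class, 10 in the neutrophil-like class and 5 in the Lyve1 macrophage-like class, among classes with at least 50 cells. The same count over all genes is not given, so these counts cannot show that the members differ from other genes in this respect.

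**Figure D1:**
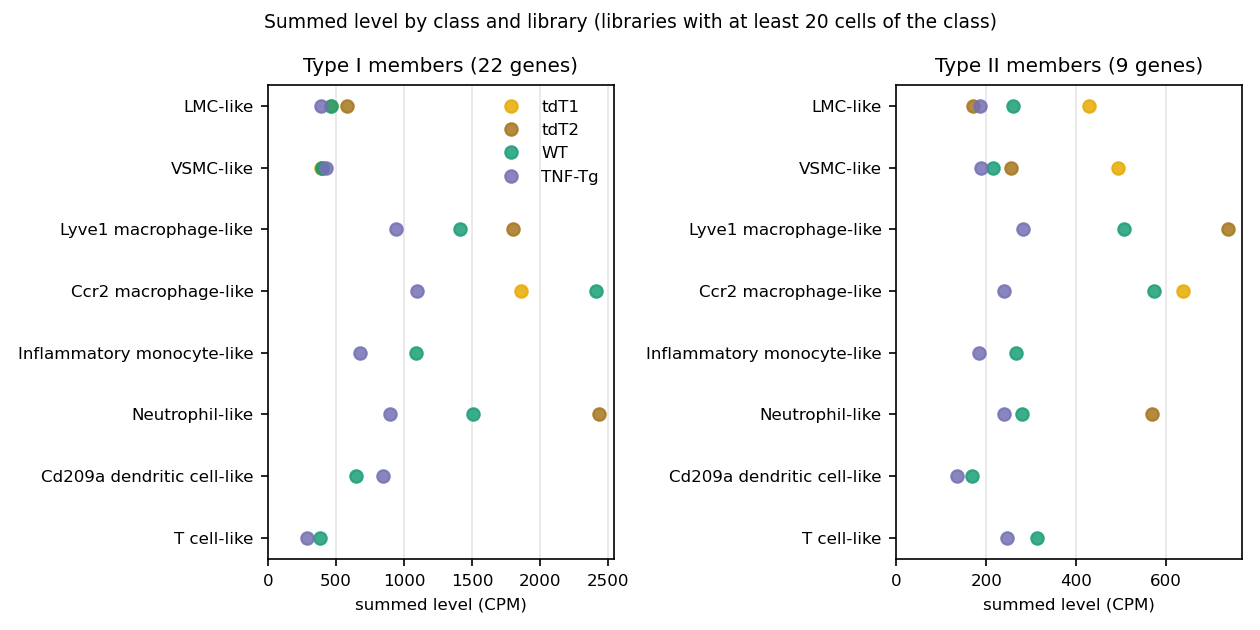
Summed level (CPM, linear axis from 0) of the 22 type I members (left) and the 9 type II members (right) in each gated class, 1 point per library with at least 20 cells of the class. In the macrophage, monocyte and neutrophil classes the TNF-Tg point lies left of the WT point in both panels (type I: 1092 against 2407 CPM in Ccr2 macrophage-like cells), and in LMC-like and VSMC-like cells the tdT1 point is the rightmost for type II.

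All 4 libraries held both leukocytes and stromal cells, which allowed a test of where the members are expressed, on counts summed per library and lineage with the library as a block. Of 35 members tested, 22 were higher in leukocytes (30.4% of all 12616 genes tested were) and 2 were lower (27.5% of all genes were). By inducer, 14 of 21 type I members, 4 of 8 type II members and 4 of 6 members of both kinds were higher. The median member difference was 1.01 on the log2 scale, against 0.06 over all genes. Leaving out tdT2 gave 16 members higher and 5 lower, and leaving out TNF-Tg gave 20 higher and 1 lower. The shares over all genes with a library left out are not given, so such counts cannot show a change particular to the members.

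Oas1a, Oas2 and Oas3, oligoadenylate synthetases that sense double-stranded RNA and trigger RNA decay, and their relative Oasl1 were among the steepest differences. Oasl1 stood at 15.4, 26.8, 20.5 and 9.39 CPM in the leukocytes of tdT1, tdT2, WT and TNF-Tg, and at 0.35, 0, 0.48 and 0.30 CPM in their stromal cells (log2 difference 5.45 ± 0.33 SE, adjusted p = 3.29e-06). Oas3 (5.87 ± 0.48, adjusted p = 1.86e-05), Oas2 (5.08 ± 0.46, adjusted p = 3.29e-05) and Oas1a (2.99 ± 0.28, adjusted p = 4.30e-05) were higher in the leukocytes of every library as well. Rsad2, which encodes the antiviral enzyme viperin, differed by 3.19 ± 0.32 (adjusted p = 6.89e-05). These genes were close to undetected in stromal cells, at 0 to 4.61 CPM. With stromal counts this low, the fitted size depends on the prior count, while the direction was the same in 4 of 4 libraries for all 5. The leukocyte values pool unlike classes, and not every class carried these genes. In WT, Oasl1 stood at 35.9 CPM in neutrophil-like and 30.8 CPM in Lyve1 macrophage-like cells. It was at 0.84 CPM in Cd209a dendritic cell-like and 0 CPM in T cell-like cells. Rsad2 stood at 152 CPM in WT neutrophil-like cells, against 2.11 and 0 CPM in those 2 classes.

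The 2 members that were lower in leukocytes were both interferon gamma-induced GTPases. Gbp2, a guanylate-binding protein that attacks pathogen vacuoles, stood at 38.4, 40.0, 44.5 and 39.4 CPM in stromal cells and at 19.1, 27.9, 33.5 and 9.34 CPM in leukocytes, in the same order of libraries (log2 difference -1.001 ± 0.291, adjusted p = 0.0184), a call lost without the library block. Iigp1, another GTPase of pathogen vacuoles, was lower in the leukocytes of 3 of 4 libraries (-1.53 ± 0.56, adjusted p = 0.0456), with 72.0 CPM in WT stromal cells and 39.5 CPM in WT leukocytes. Its call was lost in 4 of the alternatives tried. Leukocyte marker RNA was low in the stromal classes, where 6 leukocyte genes, the basis of the gate, summed to 0 to 29.9 CPM, against 2218 to 15470 CPM in the leukocyte classes.

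Within the stromal cells, LMC-like and VSMC-like cells were compared in the same way over 4 libraries. Of 30 members tested, 4 were higher in LMC-like cells (9.81% of all 10820 genes were) and 2 were lower (13.6% of all genes were). A further 24 members did not pass the test, and the median member difference was 0.25 on the log2 scale, against -0.02 over all genes. The counts became 8 higher and 5 lower without tdT1, and 3 higher and 1 lower without WT, again with no share over all genes given.

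Usp18, the protease that strips ISG15 from proteins and dampens the type I receptor, was higher in LMC-like cells, at 41.7, 39.9, 31.5 and 19.1 CPM in tdT1, tdT2, WT and TNF-Tg, against 14.7, 1.73, 9.97 and 8.05 CPM in VSMC-like cells (log2 difference 1.501 ± 0.221, adjusted p = 1.07e-04). Ifit2, which binds foreign RNA and blocks its translation, showed the same order in all 4 libraries (1.04 ± 0.16, adjusted p = 1.99e-04). Trim30a, a ubiquitin ligase that restrains innate signaling (0.87 ± 0.16, adjusted p = 9.75e-04), and Irf7, the master factor of interferon alpha production (0.63 ± 0.20, adjusted p = 0.0297), followed. The Trim30a call was lost without the library block, and that of Irf7 under 3 alternatives. In the other direction, Ifi47, an interferon gamma-induced GTPase, stood at 67.4, 55.2, 25.7 and 39.2 CPM in VSMC-like cells. In LMC-like cells it stood at only 8.86 to 13.8 CPM (-1.79 ± 0.20, adjusted p = 7.33e-06). Isg20, an RNA exonuclease, was lower in LMC-like cells by a smaller margin (-0.53 ± 0.16, adjusted p = 0.0227), a call also lost under 3 alternatives. The members called between the stromal classes thus ran in both directions.

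Monocyte-like and Lyve1 macrophage-like cells could be compared in 3 libraries, tdT2, WT and TNF-Tg, with 21, 71 and 743 monocyte-like cells. Monocyte-like here joins the inflammatory monocyte-like class with cells gated as patrolling monocytes, which numbered 4, 5 and 192 in these libraries. The make-up of the joined class thus differed between libraries, and its part in the test was not examined. Of 34 members tested, 6 were higher in monocyte-like cells (17.5% of all 9035 genes were) and 13 were higher in Lyve1 macrophage-like cells (20.6% of all genes were). The number higher in Lyve1 macrophage-like cells was 8 without WT and 8 without TNF-Tg, again with no share over all genes given.

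Iigp1 marked the Lyve1 macrophage-like side, at 171, 68.0 and 28.0 CPM in tdT2, WT and TNF-Tg, against 6.64, 1.29 and 0.13 CPM in monocyte-like cells (log2 difference, monocyte minus macrophage, -6.27 ± 0.50, adjusted p = 3.00e-11). Oasl1, which restrains translation of Irf7, stood at 68.3, 30.8 and 45.3 CPM against 19.9, 5.16 and 3.23 CPM (-3.14 ± 0.38, adjusted p = 8.37e-08). Gbp7, a guanylate-binding protein, stood at 148, 140 and 82.7 CPM against 19.9, 42.5 and 13.9 CPM (-2.09 ± 0.26, adjusted p = 1.72e-07). For all 3 genes the lowest macrophage library was above the highest monocyte library. They were picked by the smallest p in this direction, and the share of all genes set apart in this way is not given. Rsad2 and Oas2 followed, by -1.76 ± 0.34 and -1.64 ± 0.32 (adjusted p = 1.37e-04 for both).

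On the monocyte side stood Zbp1, a sensor of Z-form nucleic acid that starts necroptosis, at 173, 121 and 94.3 CPM in tdT2, WT and TNF-Tg, against 68.3, 52.2 and 33.7 CPM in Lyve1 macrophage-like cells (1.51 ± 0.23, adjusted p = 4.34e-06). Isg20 (2.28 ± 0.37, adjusted p = 1.09e-05), Xaf1, a pro-apoptotic zinc finger protein (1.04 ± 0.24, adjusted p = 7.70e-04), Irf7 (0.94 ± 0.25, adjusted p = 2.81e-03) and Ifi35 (0.97 ± 0.25, adjusted p = 2.96e-03) were higher in 3 of 3 libraries. Oas1a was also higher in monocyte-like cells (1.00 ± 0.31, adjusted p = 0.0103), a call lost under 3 alternatives for a gene whose reads may be shared with Oas1g. The Irf7 call was lost under 2 alternatives, and those of Ifi35 and Rsad2 under 1 each.

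Between TNF-Tg and WT, more members lay below WT than above it in each of the 8 classes with at least 50 cells in both libraries. Of all genes, 46.95% to 63.7% lay below WT, depending on the class. In VSMC-like cells members were below less often than all genes were (16 of 28, against 63.3% of all genes). The median ratio was lowest in macrophages. A member counted as measured where it had at least 20 UMIs over both libraries, and a difference was counted from 2-fold. The same rule held for all genes, but a gene could reach 20 UMIs in 1 library and not in the other. Among members counted at least 2-fold lower, Cxcl9 (58 UMIs in WT and 0 in TNF-Tg) and Ifi44 (199 and 8) did so in Lyve1 macrophage-like cells. In Ccr2 macrophage-like cells Ifit2 (69 and 3), Iigp1 (39 and 1) and Ifit3b (27 and 3) did so. The ratios below have 95% intervals that cover counting error only, and with 1 library per group they describe these 2 libraries. In Ccr2 macrophage-like cells (119 WT and 172 TNF-Tg cells) 21 of 34 members were at least 2-fold lower (8.04% of all 8291 genes were), and the count of members at least 2-fold higher was 0 (7.01% of all genes were). All 34 were below WT, against 47.4% of all genes. In Lyve1 macrophage-like cells (1466 and 265 cells) 9 of 37 were at least 2-fold lower (6.08%) and 0 at least 2-fold higher (4.99%), and 35 were below WT (46.95% of all genes). The median log2 ratio of the members was -1.23 in the former class and -0.79 in the latter, against 0.04 over all genes in both.

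Inflammatory monocyte-like cells (66 and 551 cells) followed, with 9 of 33 members at least 2-fold lower (4.72% of all genes) and 1 higher (7.26%), and a median of -0.51 against a value near 0 (-0.004) over all genes. Neutrophil-like cells (329 and 216 cells) had 7 of 29 at least 2-fold lower (9.11%) and 0 higher (5.76%), with a median of -0.69 against -0.09. Cd209a dendritic cell-like cells (156 and 228 cells) had 4 of 31 at least 2-fold lower (8.1%) and 2 higher (5.79%), with a median of -0.39 against -0.02. There, 17 were below and 14 above WT, a split near that of all genes, 51.2% of which were below. T cell-like cells (57 and 62 cells) had 4 of 15 at least 2-fold lower (8.71%) and 0 higher (1.72%), and 22 members had too few UMIs to be measured there.

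The stromal classes showed small differences. In LMC-like cells (1325 and 495 cells) 2 of 32 members were at least 2-fold lower (5.88% of all genes) and 0 higher (4.29%), near the background, with a median of -0.22 against -0.03. In VSMC-like cells (589 and 393 cells) 1 of 28 was at least 2-fold lower (13%) and 1 higher (3.45%), with a median of -0.29 against -0.24 over all genes. Scaling by TMM moved all ratios of VSMC-like cells up by 0.21 and of T cell-like cells up by 0.17, and those of Lyve1 macrophage-like cells down by 0.10. With cells thinned to 3000 UMIs or weighted equally the members' median lay above that of all genes, by 0.14 and 0.19. Relative to all genes, the direction of the VSMC-like median thus depended on how cells were weighted.

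**Figure D2:**
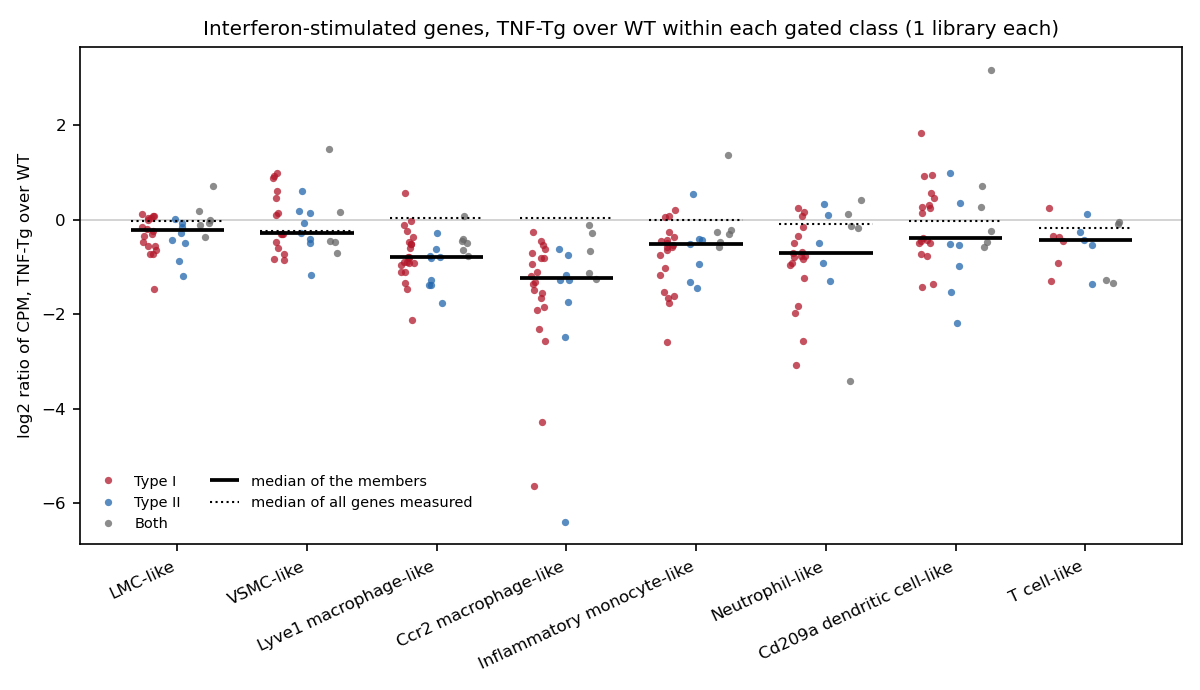
Log2 ratio of CPM, TNF-Tg over WT, of each measured member in each gated class, colored by inducer, with the median of the members (solid bar) and of all genes measured (dotted bar). The solid bar lies at -1.23 in Ccr2 macrophage-like and -0.79 in Lyve1 macrophage-like cells, far below the dotted bar, and beside it in VSMC-like cells (-0.29 and -0.24).

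Other RNA moved along with these classes, and its part in the ratios was not tested. In Ccr2 macrophage-like cells the 8 markers listed for the class, without Ccr2, summed to 31850 CPM in WT against 9003 CPM in TNF-Tg. The Ear2 phagocyte markers summed to 2398 against 454 CPM, the Cd209a dendritic cell markers to 1092 against 295 CPM and the neutrophil markers to 715 against 175 CPM. In Lyve1 macrophage-like cells the same Ccr2 macrophage markers summed to 43120 against 19190 CPM, higher in both libraries than in the Ccr2 macrophage-like class. The Lyve1 macrophage markers summed there to 10760 against 9267 CPM, and the neutrophil markers to 278 against 971 CPM. In inflammatory monocyte-like cells the class's own markers summed to 8827 against 7110 CPM and the neutrophil markers to 325 against 1245 CPM. In Cd209a dendritic cell-like cells the class's own markers summed to 4032 CPM in WT against 3332 CPM in TNF-Tg. The Ear2 phagocyte markers summed there to 938.5 against 167.8 CPM, and the Lyve1 macrophage markers to 677.2 against 324.7 CPM. The inflammatory monocyte markers rose there, from 622 to 1240 CPM. The 6 stromal marker genes, a measure of stray RNA in leukocytes, summed to 115 CPM in WT against 42.1 CPM in TNF-Tg Ccr2 macrophage-like cells, and to 143 and 74.9 CPM in Lyve1 macrophage-like cells. The early-response genes summed to 7534 and 4251 CPM in Ccr2 macrophage-like cells and to 7140 and 5546 CPM in Lyve1 macrophage-like cells. The median UMI count of a Ccr2 macrophage-like cell was 10661 in WT and 14764 in TNF-Tg. When the cells were clustered, the cluster with most of the Ccr2 macrophage-like class held 73.1% of its cells in WT, against 91.3% in TNF-Tg. The shares were 75.6% and 96.6% for Lyve1 macrophage-like cells and 92.4% and 77.7% for the inflammatory monocyte-like class. With clusters in place of gates, the median ratio of the Ccr2 macrophage-like members was -1.35.

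Among the transcription factors that relay interferon signals, Irf7 had its lowest ratio in Ccr2 macrophage-like cells. It was at 231 CPM in WT (264 UMIs) and 73.9 CPM in TNF-Tg (181 UMIs), a log2 ratio of -1.65 [-1.93, -1.37]. In Lyve1 macrophage-like cells Irf7 was at 85.3 CPM in tdT2, 94.1 CPM in WT against 34.0 CPM in TNF-Tg, so that TNF-Tg lay below both other libraries with enough cells. In inflammatory monocyte-like cells it was at 110 and 73.9 CPM. In Cd209a dendritic cell-like cells the order turned, with 23.6 CPM in WT against 44.5 CPM in TNF-Tg (0.91 [0.45, 1.39]). Stat2, part of the type I complex, had 66 UMIs in WT and 59 in TNF-Tg Ccr2 macrophage-like cells, which is 57.8 and 24.1 CPM. In neutrophil-like cells Stat2 rested on 19 UMIs against 1, a log2 ratio of -3.42 with an interval from -8.80 to -0.77. Irf9, the DNA-binding part of the same complex, was nearly level in Ccr2 macrophage-like cells, at 60.4 and 55.5 CPM. Irf1, which interferon gamma and TNF both induce, was higher in TNF-Tg Cd209a dendritic cell-like cells (21.9 and 43.1 CPM, 0.98 [0.50, 1.47]) and inflammatory monocyte-like cells (40.6 and 59.2 CPM, 0.54 [0.00, 1.13]), and lower in Ccr2 macrophage-like cells (58.7 and 38.4 CPM).

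The ratios of the Ifit family, antiviral effectors that hold back translation of foreign RNA, differed in sign between classes. Ifit3 was at 133 CPM in WT against 22.5 CPM in TNF-Tg Ccr2 macrophage-like cells (-2.57 [-3.04, -2.11]) and at 24.4 and 4.05 CPM in inflammatory monocyte-like cells (-2.59 [-3.52, -1.63]). In Lyve1 macrophage-like cells it was at 73.9 CPM in tdT2, 43.5 CPM in WT against 17.3 CPM in TNF-Tg. In VSMC-like cells the family parted, with Ifit3 at 6.05 and 11.4 CPM (0.92 [0.25, 1.59]) and Ifit1 at 10.5 and 19.2 CPM (0.88 [0.38, 1.38]), while Ifit2 stood at 12.3 and 8.05 CPM (-0.61 [-1.26, 0.02]). The tdT libraries limit that contrast, since tdT1 VSMC-like cells held 18.9 CPM of Ifit3 and 31.6 CPM of Ifit1. Ifit2 had 69 UMIs in WT and 3 in TNF-Tg Ccr2 macrophage-like cells, a log2 ratio of -5.62 with an interval from -7.94 to -4.02. In the 49 Lyve1 macrophage-like cells of tdT2 it stood at 148 CPM (26 UMIs), against 16.1 CPM in WT against 8.49 CPM in TNF-Tg.

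**Figure D3:**
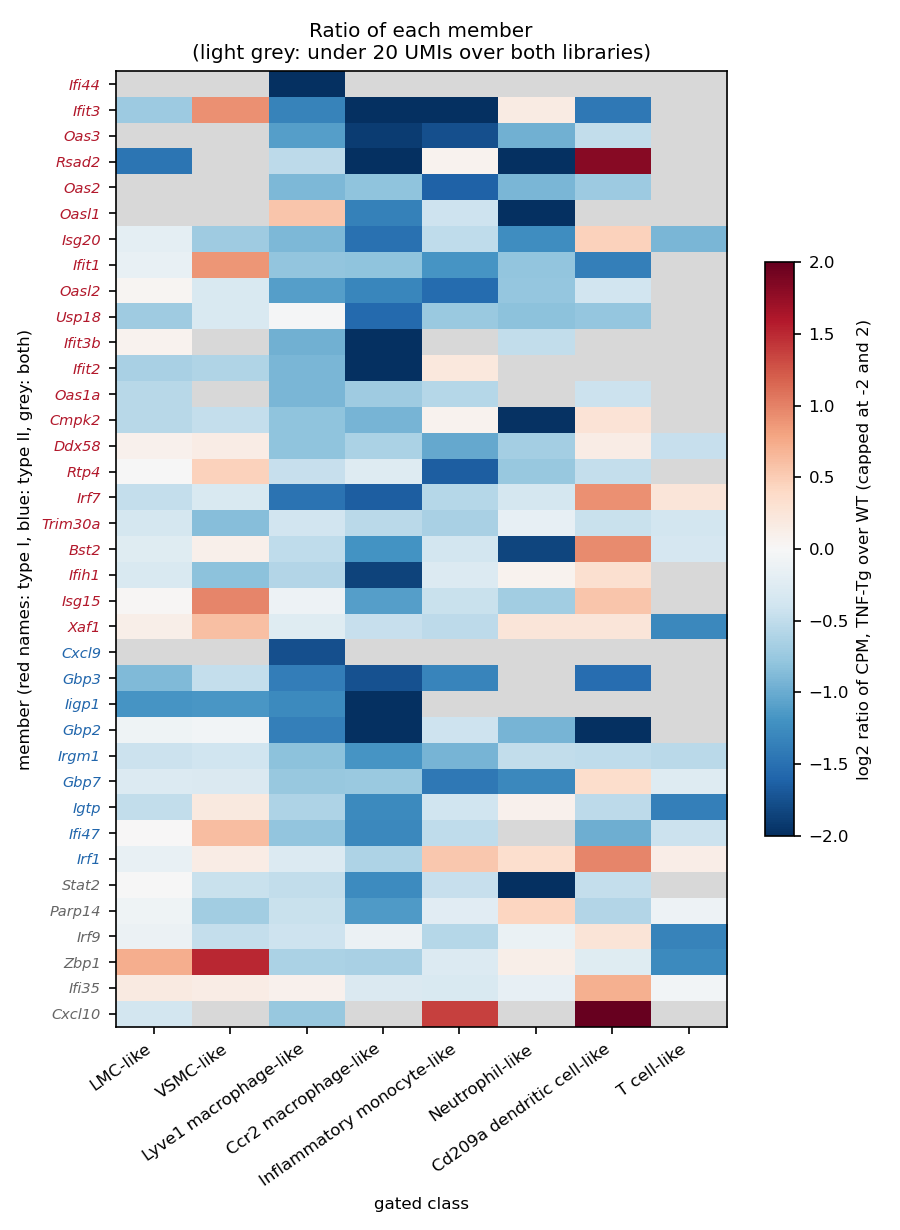
Log2 ratio of CPM, TNF-Tg over WT, of each of the 37 members (rows, names colored by inducer) in each gated class (columns), with the color scale capped at -2 and 2 and light grey where a member had under 20 UMIs over both libraries. Blue prevails in the Ccr2 macrophage-like column (34 of 34 measured members) and the Lyve1 macrophage-like column (35 of 37), and red squares are scattered over the VSMC-like and Cd209a dendritic cell-like columns, as for Zbp1 (VSMC-like, 1.503) and Bst2 (Cd209a dendritic cell-like, 0.95).

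Isg15, the ubiquitin-like modifier, was at 268 and 125 CPM in WT and TNF-Tg Ccr2 macrophage-like cells (-1.11 [-1.34, -0.87]) and at 184 and 114 CPM in neutrophil-like cells, where tdT2 had 512 CPM. It was about level in Lyve1 macrophage-like cells, at 62.5 and 58.2 CPM. In VSMC-like cells Isg15 was at 25.8, 34.5 and 28.1 CPM in tdT1, tdT2 and WT and at 55.6 CPM in TNF-Tg, the highest of the 4 libraries (0.98 [0.69, 1.28] over WT). Bst2, tetherin, which holds budding virus at the cell surface, was at 597 and 262 CPM in Ccr2 macrophage-like cells (-1.19 [-1.35, -1.03]). In Lyve1 macrophage-like cells it was at 447 CPM in WT, 314 CPM in TNF-Tg and 199 CPM in tdT2, so here TNF-Tg lay between the other 2 libraries. Cd209a dendritic cell-like cells had the opposite order, at 243 and 469 CPM (0.95 [0.81, 1.09]). Isg20 was at 124 and 52.5 CPM in neutrophil-like cells (-1.24 [-1.80, -0.71]) and at 128 CPM in those of tdT2.

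Among the Oas family and its relatives, Oasl2 was at 157 and 63.3 CPM in Ccr2 macrophage-like cells, 104 and 48.4 CPM in Lyve1 macrophage-like cells and 204 and 119 CPM in neutrophil-like cells of WT and TNF-Tg. Each of these intervals lay below 0. Oas3 was at 35.2 and 10.4 CPM in inflammatory monocyte-like cells (-1.76 [-2.44, -1.05]). Oasl1 ran against its family in Lyve1 macrophage-like cells, at 30.8 CPM in WT against 45.3 CPM in TNF-Tg (0.55 [0.28, 0.82]), although tdT2 had 68.3 CPM. In neutrophil-like cells Oasl1 had 45 UMIs in WT and 3 in TNF-Tg (-3.08 [-5.41, -1.44]). Rsad2 was at 152 and 25.5 CPM in neutrophil-like cells (-2.57 [-3.36, -1.87]), with 99.5 CPM in tdT2, and at 3.18 and 1.16 CPM in LMC-like cells (-1.46 [-2.72, -0.40]). In Cd209a dendritic cell-like cells Rsad2 was over 2-fold higher, on 5 UMIs against 22 (1.83 [0.39, 3.58]). Ifi44, a binder of GTP with antiviral action, was measured in Lyve1 macrophage-like cells alone, with 199 UMIs in WT and 8 in TNF-Tg (-2.12 [-3.35, -1.12]). Rtp4, a chaperone that also restrains flavivirus RNA, was at 75.8 and 24.1 CPM in inflammatory monocyte-like cells (-1.65 [-2.10, -1.18]).

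Among the RNA sensors and other effectors, Ifih1, the sensor MDA5, was at 69.2 and 19.2 CPM in Ccr2 macrophage-like cells (-1.85 [-2.40, -1.31]) and 22.6 and 12.7 CPM in VSMC-like cells (-0.83 [-1.33, -0.35]). Trim30a was at 269 and 241 CPM in neutrophil-like cells, 158 and 101 CPM in the inflammatory monocyte-like class and 20.1 and 11.2 CPM in VSMC-like cells (-0.85 [-1.38, -0.34] for the last). Parp14, an ADP-ribosyltransferase of the interferon response, was at 155 and 71.1 CPM in Ccr2 macrophage-like cells (-1.13 [-1.44, -0.82]). Ifi35 was at 62.8 and 103 CPM in Cd209a dendritic cell-like cells (0.72 [0.43, 1.01]), and Xaf1 at 102 and 73.9 CPM in Ccr2 macrophage-like cells (-0.46 [-0.80, -0.11]).

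Zbp1 had the highest member ratio in both stromal classes. In VSMC-like cells it was at 13.2, 13.8 and 16.7 CPM in tdT1, tdT2 and WT and at 47.3 CPM in TNF-Tg, a log2 ratio to WT of 1.503 [1.15, 1.87]. In LMC-like cells it was at 24.1, 42.1 and 30.4 CPM in the same 3 libraries and at 50.045 CPM in TNF-Tg (0.72 [0.53, 0.91]). TNF-Tg was the highest of 4 libraries in both classes. In Ccr2 macrophage-like cells Zbp1 ran the other way, at 178 and 113 CPM (-0.65 [-0.92, -0.38]).

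**Figure D4:**
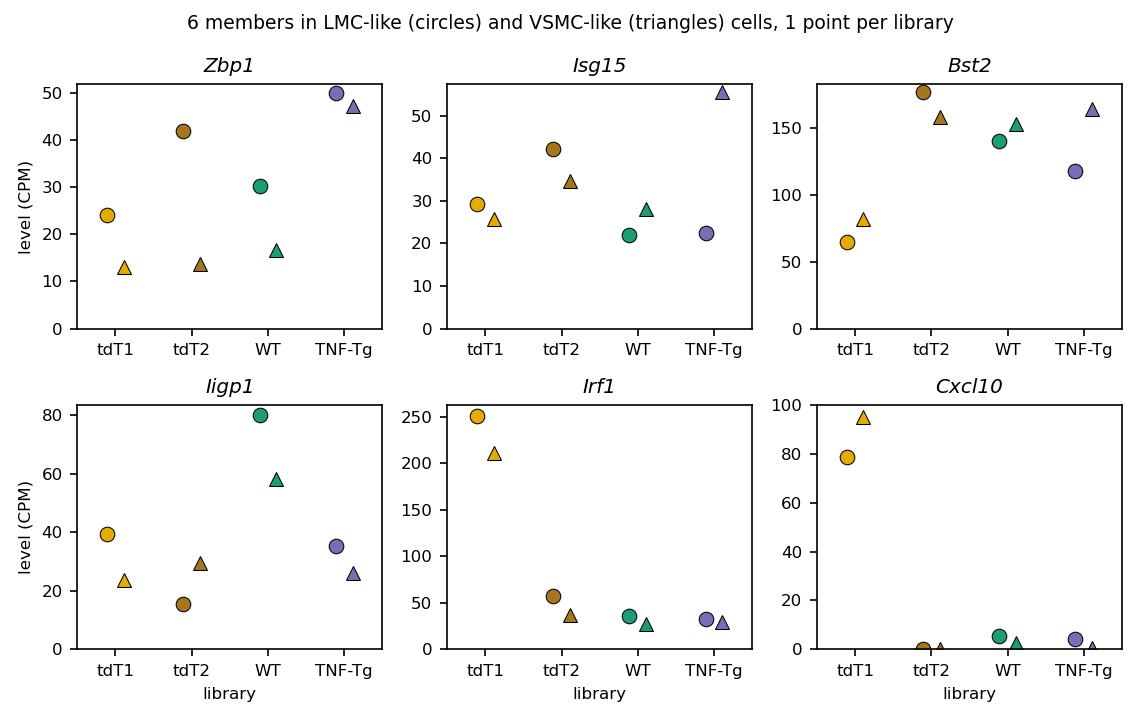
Level (CPM, axes from 0, 1 scale per gene) of 6 members in LMC-like (circles) and VSMC-like (triangles) cells of the 4 libraries, 1 point per class and library. TNF-Tg is highest for Zbp1 in both classes (50.045 and 47.3 CPM), WT is highest for Iigp1 (80.2 and 58.0 CPM), and tdT1 is highest for Irf1 (251 and 211 CPM) and Cxcl10 (78.8 and 95.3 CPM).

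Among the interferon gamma-induced GTPases, Iigp1 was at 80.2 and 35.4 CPM in LMC-like cells of WT and TNF-Tg (-1.18 [-1.38, -0.99]) and at 58.0 and 26.0 CPM in VSMC-like cells (-1.16 [-1.49, -0.84]). The tdT libraries held 39.3 and 15.5 CPM in LMC-like cells and 23.7 and 29.3 CPM in VSMC-like cells, so TNF-Tg lay within their range and WT above it. In Lyve1 macrophage-like cells Iigp1 was at 171 CPM in tdT2, 68.0 CPM in WT against 28.0 CPM in TNF-Tg, and in Ccr2 macrophage-like cells it had 39 UMIs in WT and 1 in TNF-Tg (-6.39 [-11.73, -3.82]). Gbp2 was at 39.9 and 15.4 CPM in Lyve1 macrophage-like cells (-1.37 [-1.82, -0.95]) and 9.27 and 2.04 CPM in Cd209a dendritic cell-like cells (-2.19 [-3.78, -0.84]). Gbp3 was at 12.8 and 6.96 CPM in LMC-like cells (-0.88 [-1.35, -0.43]) and 15.6 and 5.43 CPM in Cd209a dendritic cell-like cells (-1.52 [-2.47, -0.64]). Gbp7 was at 140 and 82.7 CPM in Lyve1 macrophage-like cells (-0.76 [-0.95, -0.58]). Irgm1, which guards autophagy in macrophages, was at 103 and 45.7 CPM, and Ifi47 at 141 and 58.0 CPM, in Ccr2 macrophage-like cells (-1.18 [-1.56, -0.79] and -1.28 [-1.62, -0.95]). Ifi47 was higher in VSMC-like cells, at 25.7 and 39.2 CPM, where tdT1 and tdT2 held 67.4 and 55.2 CPM.

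The chemokines that draw CXCR3-bearing T cells had low levels in WT and TNF-Tg. In tdT1, Cxcl10 alone was high, at 924 CPM (116 UMIs) in 21 Ccr2 macrophage-like cells and 304 CPM (122 UMIs) in Ear2 phagocyte-like cells. Cxcl9 was at 0 CPM in both of these classes of tdT1. Those 21 cells had a median of only 1600 UMIs, and 38.1% of them lay in the cluster named for their class. Cxcl9 was measured in Lyve1 macrophage-like cells alone, with 58 UMIs in WT and 0 in TNF-Tg. With a floor of 3 UMIs over the class in place of the 0 it was 3.38-fold lower, and the log2 interval reached up to -1.41. Cxcl10 was measured in 4 classes, lower in 2 and higher in 2. In Lyve1 macrophage-like cells it had 29 UMIs in WT and 3 in TNF-Tg (-0.76 [-3.12, 0.93]), and in LMC-like cells 113 and 28 UMIs (-0.36 [-1.01, 0.25]). In inflammatory monocyte-like cells it had 0 UMIs in WT and 65 in TNF-Tg, 2.59-fold higher with the same floor, and the log2 interval began at 1.035. In Cd209a dendritic cell-like cells it had 5 and 56 UMIs, which is 2.11 and 19.0 CPM (3.17 [1.87, 4.85]).

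By inducer, the medians lay close together. Type I and type II members had medians of -1.31 and -1.28 in Ccr2 macrophage-like cells, -0.80 and -0.81 in Lyve1 macrophage-like cells, -0.57 and -0.51 in inflammatory monocyte-like cells, and, for LMC-like cells, -0.28 and -0.36. The medians lay farther apart in neutrophil-like cells, at -0.78 and -0.49, and in Cd209a dendritic cell-like cells, at -0.12 and -0.53. In VSMC-like and T cell-like cells they were -0.30 and -0.17, and -0.41 and -0.43. The sign of the difference between the type I and type II medians changed under at least 1 alternative in LMC-like, VSMC-like, Ccr2 macrophage-like, inflammatory monocyte-like, neutrophil-like and T cell-like cells, and did not in Lyve1 macrophage-like and Cd209a dendritic cell-like cells. With 1 library per group the difference was not tested.

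Counting cells rather than UMIs gave a similar order at a fixed depth. With each cell thinned to 3000 UMIs and shallower cells left out, 70% of 90 Ccr2 macrophage-like WT cells held 3 or more type I members (exact Clopper-Pearson interval 59.4% to 79.2%), against 37.5% of 160 TNF-Tg cells (29.98% to 45.5%). In this class 29 WT and 12 TNF-Tg cells were left out as shallower. The shares were 48.7% of 1416 and 29.8% of 252 Lyve1 macrophage-like cells (46.1% to 51.4% and 24.2% to 35.8%), and 42.4% of 66 and 19.4% of 536 inflammatory monocyte-like cells (30.3% to 55.2% and 16.1% to 23.0%). Neutrophil-like cells held 39.6% of 230 in WT and 25.9% of 116 in TNF-Tg, with 99 and 100 shallower cells left out, and Cd209a dendritic cell-like cells 20.9% of 153 and 18.6% of 226. Among stromal cells the shares were 12.1% of 1307 and 7.94% of 491 LMC-like cells, and 8.66% of 508 and 10% of 330 VSMC-like cells. Red cells, thinned alike, held 3 or more type I members in 0 of 37 WT cells, which allows a share of up to 8.11% by the floor of 3 cells and 9.49% by the exact interval, and in 2 of 46 TNF-Tg cells (4.35%, interval 0.53% to 14.8%). Red cells held members of their own, with Isg20 at 188 and 276 CPM and Isg15 at 135 and 80.3 CPM in WT and TNF-Tg, so they are a comparison and not a pure background. Without thinning, the Ccr2 macrophage-like shares were 71.4% in WT and 77.9% in TNF-Tg, whose cells were deeper. The 10% of Lyve1 macrophage-like cells richest in type I UMIs held 31.4% of those UMIs in WT and 36.9% in TNF-Tg.

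**Figure D5:**
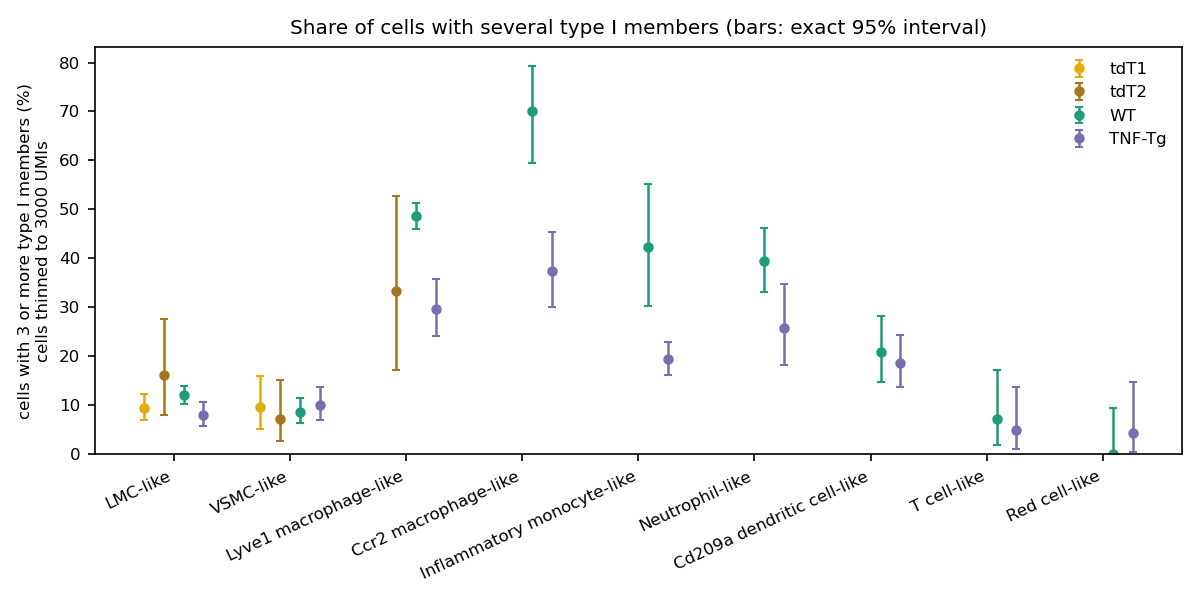
Share of cells (percent) with 3 or more type I members after each cell was thinned to 3000 UMIs, by gated class and library, with exact 95% intervals that cover counting error only and red cells for comparison at the right. The WT and TNF-Tg intervals are apart in Ccr2 macrophage-like (70% and 37.5%), Lyve1 macrophage-like (48.7% and 29.8%) and inflammatory monocyte-like cells (42.4% and 19.4%). Cells of a library are not replicates, so the intervals hold no spread between mice or libraries.

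The tdT libraries give the spread between libraries of the same genotype. By the study's methods, tdT1 and tdT2 also differed in sorter nozzle, collection tube preparation and sequencer, so this spread holds those differences as well. In VSMC-like cells the 29 members measured had a median log2 ratio of tdT2 over tdT1 of -0.50, against a value near 0 (-0.001) over all genes, and in LMC-like cells the median was -0.12. The tdT2 to tdT1 median was larger in size than the TNF-Tg to WT median in VSMC-like cells (-0.29) and smaller in LMC-like cells (-0.22). Irf1 was at 251 CPM in tdT1 LMC-like cells and 57.6, 35.98 and 32.5 CPM in tdT2, WT and TNF-Tg, and Cxcl10 at 78.8 CPM against 0 to 5.21 CPM, so tdT1 alone was high. In LMC-like cells TNF-Tg lay below the range of the other 3 libraries for 12 of 33 members (27.5% of all genes) and above it for 2 (26.4%), which were Zbp1 and Ifi35. In VSMC-like cells 11 of 30 lay below (42.6%) and 4 above (21.5%), the latter being Zbp1, Isg15, Bst2 and Rsad2.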

How the data were processed

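The deposited matrices hold UMI counts per gene and cell, made by the authors with Cell Ranger on mm10 (the annotation is not given in the sources used here). The submitters' processing notes name Cell Ranger 3.1.0 and Seurat 4.0.3, while the file headers name version 3.1.0 for tdT1 (31053 features) and 6.0.1 for the others (32287 features). Genes were joined by Ensembl ID. The members, lists and tests were chosen with earlier results of these data known, and gate thresholds were set while viewing marker levels. A cluster made mostly of predicted doublets was left unnamed after it was seen.

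Cells were gated by summed marker levels and a best-class score with a margin, and 14.4% to 29.2% of a library's cells stayed without a class. Seurat 5.3.0 clusters served as the alternative. Scrublet in scanpy 1.11.5 predicted 4, 1, 138 and 72 doublets in tdT1, tdT2, WT and TNF-Tg, which were kept, and left out in an alternative. The authors' library totals were 14256192, 2357031, 68773605 and 37557627 counts in that order. Ratios carry exact conditional binomial 95% intervals. Tests used edgeR 4.0.16 (quasi-likelihood, TMM, filterByExpr, Benjamini-Hochberg at 0.05 over all genes, gate genes left out) on counts summed per library and class, with the library as a block because both classes of a pair come from the same cell suspension. Replicates here are libraries, each a pool of 3 mice. Intervals and floors cover counting error only. DESeq2 1.42.0 was an alternative. On simulated data the 3 tests recovered 66%, 79% and 42% of 2-fold changes and 100%, 100% and 97% of 4-fold changes, for leukocytes, LMC-like and monocyte-like cells, over 12794, 10774 and 9140 genes. False calls were 4 of 170, 6 of 185 and 7 of 146 calls. Changes were put only into genes above a set mean level, at a fixed dispersion and without library effects beyond depth. Members below that level or with a wider spread between libraries are not covered by these shares.

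Named with values were members at 100 CPM or more in any class (24), the 3 highest and 3 lowest ratios in each of the 6 largest classes, and up to 5 members per direction of each test. Values in Ccr2 macrophage-like and T cell-like cells beyond that rule were chosen after they were seen. Promoter windows came from the RefSeq table and gene positions from GENCODE.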

Additional observations from a re-analysis of the deposited data

Results flagged for a closer look

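For 12 members the TNF-Tg to WT ratio had a counting interval above 0 in at least 1 class and below 0 in another. The difference between classes was not tested, since each group had 1 library. The values are the highest and the lowest log2 ratio among those classes. The same count over all genes is not given, so the 12 cannot show that the members differ from other genes in this respect. Within a single class, 10.39% to 34.42% of all genes had an interval below 0 and 4.177% to 26.42% above it. In VSMC-like cells the higher ratios were Zbp1 1.5, Isg15 0.98, Ifit3 0.92, Ifit1 0.88, Xaf1 0.61, Ifi47 0.61 and Rtp4 0.46. The lowest ratios of the same genes were -1.27 for Zbp1 in T cell-like cells, -1.11 for Isg15 and -1.28 for Ifi47 in Ccr2 macrophage-like cells, -2.59 for Ifit3, -0.53 for Xaf1 and -1.65 for Rtp4 in inflammatory monocyte-like cells, and -1.36 for Ifit1 in Cd209a dendritic cell-like cells. In Cd209a dendritic cell-like cells the higher ratios were Rsad2 1.83, Irf1 0.98, Bst2 0.95 and Irf7 0.91. Their lowest ratios were -2.57 for Rsad2 and -1.83 for Bst2 in neutrophil-like cells and -0.61 for Irf1 and -1.65 for Irf7 in Ccr2 macrophage-like cells. Oasl1 was higher in Lyve1 macrophage-like cells (0.55) and lower in neutrophil-like cells (-3.08). Of the genes named as higher in VSMC-like cells, Zbp1 and Isg15 had TNF-Tg above all other libraries. For Ifit3, Ifit1, Xaf1, Ifi47 and Rtp4 at least 1 tdT library lay above TNF-Tg in that class. Xaf1 was at 39.7 CPM in tdT2 against 37.4 CPM in TNF-Tg, and Rtp4 at 27.6 against 22.3 CPM.

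Mx1 was listed in the matrix of tdT1 alone and entered no comparison. It had 48 UMIs there in 30 of 1504 cells, above the floor of 3, of which 38 UMIs were in the 206 leukocytes (23.5 CPM) and 8 in the 1079 stromal cells (0.70 CPM).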

How the results depend on the processing

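The median member ratio of TNF-Tg to WT stayed below 0 in all 8 classes under each of 8 other settings, from -1.35 to -0.99 in Ccr2 macrophage-like and -0.89 to -0.65 in Lyve1 macrophage-like cells. In 64 of 64 such comparisons it moved by less than the members' typical counting interval, a wide allowance. Relative to all genes the VSMC-like median turned from -0.05 to 0.14 with thinned cells and 0.19 with equal weight for each cell. Counts of members at least 2-fold lower moved by over 1.5 times in 15 of 72 comparisons, and higher in 13 of 72.

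Without the library as a replicate block, the members called higher and lower were 19 and 0 for leukocytes against stromal cells, 2 and 1 for LMC-like against VSMC-like cells, and 4 and 6 for monocyte-like against Lyve1 macrophage-like cells. The 0 came from edgeR, with 1 member lower at an unadjusted p under 0.05, and DESeq2 called 2. In leukocytes against stromal cells 1 member was lower without poor cells (over 10% mitochondrial or under 500 genes), and 1 with clusters in place of gates. In LMC-like against VSMC-like cells DESeq2 called 1 lower. Leaving out 1 library in turn gave 16 to 23 higher and 1 to 5 lower in the leukocyte comparison, 3 to 8 and 1 to 5 in the stromal one, and 4 to 6 and 8 to 16 in the monocyte one. Calls kept under every alternative were 16 of 24, 3 of 6 and 8 of 19, and no call changed sign. Where a library was left out of the monocyte comparison, 2 libraries remained. Shares over all genes are given for the main setting alone, so counts under the other settings cannot show a change particular to the members.

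The share of cells with 3 or more type I members, TNF-Tg minus WT in percentage points, was -4.15 in LMC-like, -19.0 in Lyve1 macrophage-like, 1.34 in VSMC-like, -32.5 in Ccr2 macrophage-like and -2.23 in T cell-like cells. Requiring 5 members gave -0.67 in LMC-like and -10.0 in Lyve1 macrophage-like cells, and thinning to 1500 UMIs gave -8.02 in the latter. Unthinned cells gave -15.1 in LMC-like, -11.9 in Lyve1 macrophage-like, -4.19 in VSMC-like and -22.5 in T cell-like cells, and reversed Ccr2 macrophage-like cells to 6.48, where TNF-Tg cells were deeper. This difference was taken as the measure after the shares of each library were seen to move with depth.

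With 1 library each, no spread between mice stands behind any TNF-Tg to WT value. A member with few UMIs carries an interval wider than 2-fold, even above the 20 UMIs needed to be measured. Rsad2 in Cd209a dendritic cell-like cells, on 5 and 22 UMIs, had a log2 interval from 0.39 to 3.58. TNF-Tg and WT differ in genotype, library and cell recovery together, which cannot be told apart.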

Other observations

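Beyond the members, the machinery of the interferon response and a further list of interferon-induced genes were read in the same 8 classes, again as ratios of 1 library to another. Of 29 pathway genes, 24 were measured in at least 1 class. Socs1, the brake on JAK signaling, was over 2-fold higher in TNF-Tg in 3 classes, at 17.3 and 47.1 CPM in LMC-like cells of WT and TNF-Tg and at 35.2 and 77.2 CPM in VSMC-like cells. Myd88, the adaptor of Toll-like receptors, was higher in TNF-Tg in all 8 classes, at 43.8 and 115 CPM in Ccr2 macrophage-like cells and 20.4 and 43.1 CPM in LMC-like cells. The DNA sensor Cgas was over 2-fold lower in 4 classes, at 28.4 and 8.91 CPM in inflammatory monocyte-like cells. Tlr7, a sensor of single-stranded RNA, was at 101 and 42.8 CPM in Lyve1 macrophage-like cells and 71.8 and 32.7 CPM in Ccr2 macrophage-like cells. The interferon genes themselves, Ifnb1, the 3 alpha genes listed and Ifng, did not reach 20 UMIs over both libraries in any of the 8 classes.

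All 37 other interferon-induced genes were measured in at least 1 class. Ifitm1, a membrane protein that blocks virus entry, differed from most of the list, over 2-fold higher in TNF-Tg in 6 of 7 classes. Its largest difference was in Cd209a dendritic cell-like cells, with 7.59 CPM in WT against 2039 CPM in TNF-Tg, and it was at 4529 and 6298 CPM in neutrophil-like cells. Ifi213 and Irgm2 were each over 2-fold lower in 4 classes, with Ifi213 at 29.5 and 7.55 CPM and Irgm2 at 34.9 and 16.7 CPM in Lyve1 macrophage-like cells. Herc6, Nlrc5, the activator of MHC class I genes, and Ifi27l2a were each over 2-fold lower in 3 classes. Ifi27l2a did not keep 1 direction, at 3006 and 1182 CPM in Ccr2 macrophage-like cells but 3578 and 5236 CPM in Lyve1 macrophage-like cells. Lgals3bp, Ifi203, Slfn5, Slfn8, Phf11d and Gbp4 were over 2-fold lower in 2 classes each, and Gbp5 in 2, with 1 class higher.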
